A study of Bos taurus with 6 samples.

Results

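Retinoic acid is made, cleared and sensed by a small set of gene products, and 9 of them were followed through the testis libraries of calves and bulls. They are the enzymes of synthesis RDH10, ALDH1A1, ALDH1A2 and ALDH1A3, the enzymes of breakdown CYP26A1 and CYP26B1, the receptors RARA and RARG, and the retinol carrier RBP4. They were chosen by gene symbol, and all 9 were found among the 47249 entries of the table of genes. The animals were untreated Wandong cattle (Bos taurus), a local breed, and the 6 libraries of total testis RNA come from 3 immature calves aged 3 months and 3 andrologically mature bulls aged 3 years, with 1 library per animal. Ribosomal RNA was removed before sequencing. The level of a gene is given as FPKM, in which fragments are scaled by transcript length and by the mapped total of the library, so that levels can be compared between genes of different length. Values of single animals are given in the order 1, 2 and 3 of their labels. The tables hold no read counts. The error given is the SD between animals for a mean and the standard error (SE) from limma for a log2 fold change.

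Retinol travels in blood bound to RBP4 and enters many cells through the receptor STRA6. RDH10 oxidises it to retinaldehyde, the ALDH1A enzymes oxidise retinaldehyde to retinoic acid, and CYP26 enzymes remove retinoic acid by hydroxylation. Retinoic acid binds RAR proteins, which sit on DNA as pairs with RXR proteins. In the testis it is known for driving the differentiation of spermatogonia and for inducing STRA8 before meiosis.

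The library labelled calf 3 stood apart from its group. Genes of oligodendrocytes, astrocytes and neurons summed to 13700 FPKM in it, against 11.5 and 11.9 in calf 1 and calf 2 and 6.58 to 12.5 in bulls, and all 8 genes of that list were highest in calf 3. The 8 entries of the Leydig cell list summed to 0.502 FPKM in calf 3, with 4 of them listed at 0, and 3 of the 8 Sertoli cell genes (FSHR, WT1 and GATA4) were also listed at 0. The Sertoli cell list as a whole summed to 438 FPKM in calf 3, of which CLU gave 423 and SOX9 13.7, both higher than in any bull. The label of calf 3 is therefore in doubt, and the fold changes below are given with and without it. Among the other libraries, the 8 Sertoli cell genes summed to 2820 and 2690 FPKM in calf 1 and calf 2 and to 380 to 398 in bulls. The 6 spermatocyte genes summed to 14.0 and 21.7 in these calves and to 193 to 248 in bulls, and the 6 spermatid genes to 2.57 and 2.58 in these calves and to 13200 to 15100 in bulls. These lists differed between calf 1 and calf 2 and the bulls, and their part in the results for the retinoid genes below was not tested. In RNA of whole tissue, fewer cells of a type and less RNA per cell cannot be told apart.

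Bulls were compared with calves by limma on log2(FPKM + 1) over the 18115 genes that reached an FPKM of 1 in at least 3 libraries. A gene was called at an adjusted p (Benjamini-Hochberg, over all genes tested) below 0.05 and a difference between bulls and calves of 1 or more on the log2 scale, in either direction. ALDH1A2 and CYP26A1 were called higher in bulls, RBP4 was called lower, and the other 6 genes were not called. The table as a whole gave 35.7% of genes called higher and 9.61% called lower, together 45.3%, so that 3 of 9 is no more than the table as a whole shows. Without calf 3, ALDH1A2 and CYP26A1 were called higher and ALDH1A3 and RBP4 lower, where 37.9% and 13.6% of all genes were called, together 51.5%. The FPKM ranges of calves and bulls did not overlap for 5 of the 9 genes, against 67.4% of all genes tested. Of these, 3 were higher and 2 lower in bulls, against 46.1% and 21.3% of all genes. Without calf 3 the ranges were apart for 7 of the 9, against 84.4%, with 3 higher and 4 lower in bulls against 53.5% and 30.9%. All 9 genes passed the filter on low values, CYP26A1 only through its levels in bulls. The median log2 fold change over the 9 genes was 0.79 with all libraries and −0.042 without calf 3, beside 0.43 over all genes tested in both cases. Quantile normalization moved that median of all genes to −0.26, and its effect on calls is given below.

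**Figure D1:**
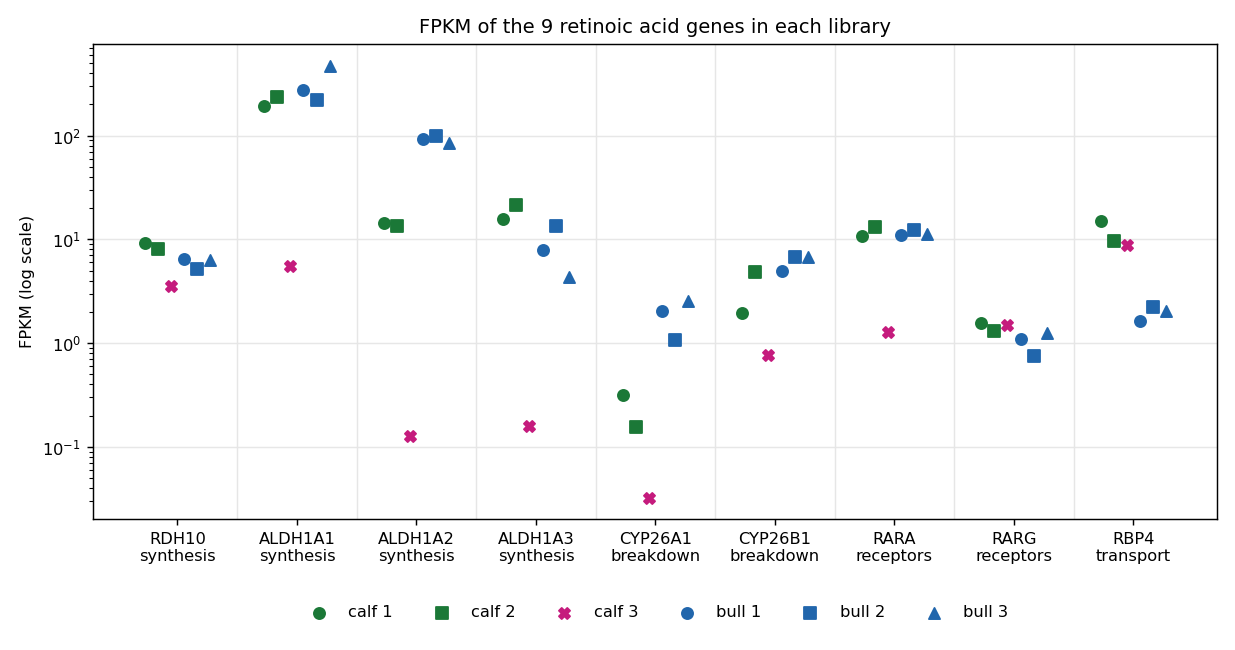
FPKM (log axis) of the 9 genes in each library; each point is 1 animal, green for calf 1 and calf 2, pink crosses for calf 3 and blue for bulls. ALDH1A2 stood at 84.7 to 98.1 in bulls against 13.3 and 14.4 in calf 2 and calf 1, RBP4 was lower in every bull than in every calf, and calf 3 was the lowest library for 7 of the 9 genes.

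The levels spanned a wide range. In bulls, ALDH1A1 was the most abundant of the 9 transcripts at 322 ± 133 FPKM (SD, n = 3), followed by ALDH1A2 at 91.9 ± 6.80 (SD, n = 3), and the ranges of these genes did not overlap. RARA, ALDH1A3, CYP26B1 and RDH10 followed at 11.5, 8.52, 6.12 and 6.01 FPKM, and each overlapped the next in range. RBP4, CYP26A1 and RARG were the lowest at 1.97, 1.89 and 1.04 FPKM, where CYP26A1 overlapped both others in range and RBP4 and RARG did not overlap. In calf 1 and calf 2, ALDH1A1 was again highest with a mean of 214 FPKM. ALDH1A3 came second with 18.4, and ALDH1A2, RBP4 and RARA followed with 13.8, 12.4 and 11.9, where RBP4 overlapped both others in range and ALDH1A2 and RARA did not overlap. CYP26A1 was lowest with a mean of 0.235. Over all 3 calves RBP4 (mean 11.2) stood before ALDH1A2 (mean 9.27), and every gene overlapped the next in range except RARG and CYP26A1. From the order in calf 1 and calf 2 to that in bulls, RBP4 went from place 4 to place 7. ALDH1A3 went from 2 to 4 and ALDH1A2 from 3 to 2.

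Among the enzymes of synthesis, RDH10 (ENSBTAG00000020143, chromosome 14, 36627981 to 36657308) catalyses the first step. It had 9.27, 8.05 and 3.56 FPKM in the calves, and 6.51, 5.22 and 6.30 in the bulls. Bulls lay below calf 1 and calf 2 and above calf 3. The log2 fold change was −0.10 ± 0.34 (SE; adjusted p = 0.811, limma). Without calf 3 it was −0.46 ± 0.15 (SE; adjusted p = 0.0279), a fall too small for a call.

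ALDH1A1 (ENSBTAG00000008103, chromosome 8, 49053228 to 49106706) makes retinoic acid from retinaldehyde and also oxidises other aldehydes. Its FPKM was 191, 237 and 5.53 in calves and 275, 219 and 472 in bulls. It was among the most abundant transcripts in every library but calf 3, with ranks 235 and 206 of 18115 genes in calf 1 and calf 2, 59 to 248 in bulls and 8174 in calf 3. The groups overlapped, since bull 2 lay below calf 2. Neither with all libraries (log2 difference 2.20 ± 1.41 SE, adjusted p = 0.232) nor without calf 3 (0.52 ± 0.32 SE, adjusted p = 0.187) was ALDH1A1 called. The highest level was that of bull 3, in which 7 of the 8 entries of the Leydig cell list were also highest. That list summed to 2740 FPKM in bull 3 and to 2160 and 1470 in bull 1 and bull 2. Its sum was 1410 and 1140 in calf 1 and calf 2. Most of each sum was INSL3, at 2262 FPKM in bull 3 and 2056 and 1403 in bull 1 and bull 2. INSL3 had 1349 and 1041 FPKM in calf 1 and calf 2. Of the 8 entries, 2 (INSL3 and STAR) were higher in every bull than in calf 1 and calf 2. The rest overlapped between bulls and these calves. Other lists also had their highest sum in bull 3. The macrophage list summed to 195 FPKM there and to 136 and 124 in bull 1 and bull 2. The list of epididymis and rete epithelium summed to 11.1 there and to 4.18 and 7.95 in bull 1 and bull 2. In bull 3, 2 of the 5 macrophage genes and 2 of the 4 entries of the epididymis list were highest. The part of these lists in the level of ALDH1A1 was not tested.

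ALDH1A2 (ENSBTAG00000010119, chromosome 10, 52214465 to 52340304) carries out the same step and is the main retinoic acid source of the early mammalian embryo. It had 14.4, 13.3 and 0.127 FPKM in the calves, and 93.0, 98.1 and 84.7 in the bulls. Every bull exceeded every calf. ALDH1A2 was called higher in bulls, with a log2 fold change of 3.88 ± 1.02 (SE; adjusted p = 0.0194, limma). Without calf 3 the increase was 2.64 with a far smaller standard error of 0.11 (adjusted p = 5.49e-06). The mean FPKM of bulls was 6.64 times that of calf 1 and calf 2. Its rank rose from 3629 and 4202 of 18115 in calf 1 and calf 2 to between 733 and 867 in bulls, and it stayed called after quantile normalization (3.01, adjusted p = 0.0297). With all calves kept and bull 1, bull 2 or bull 3 left out, ALDH1A2 missed the threshold, at adjusted p = 0.0668, 0.0671 and 0.0630. The spermatocyte genes and the spermatid genes moved in the same direction, each list being higher in every bull than in calf 1 and calf 2 in 6 of 6 cases. The sums of the peritubular myoid, macrophage, Leydig and epididymis and rete epithelium lists were also higher in every bull than in these calves. Of the 5 peritubular myoid genes, 3 were higher in every bull and 1 was lower. Of the 5 macrophage genes, 2 were higher and 3 lower. The epididymis list had 3 of 4 higher and 0 lower, and the Leydig list 2 of 8 higher and 0 lower. The part of any of these lists in the increase of ALDH1A2 was not tested.

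For ALDH1A3 (ENSBTAG00000009125, chromosome 21, 5629152 to 5670937), another enzyme of the family, the order of the groups was the opposite outside calf 3. Its FPKM was 15.7, 21.2 and 0.159 in the calves, and 7.97, 13.3 and 4.30 in the bulls. All bulls lay below calf 1 and calf 2, and all lay above calf 3. With all libraries the log2 fold change was 0.22 ± 1.17 (SE; adjusted p = 0.884), while without calf 3 it was −1.13 ± 0.41 (SE; adjusted p = 0.0423), and the gene was then called lower in bulls.

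Because a share within a library does not depend on how libraries are scaled, the makeup of the family was also compared. ALDH1A2 made up 6.51%, 4.90% and 2.19% of the summed ALDH1A FPKM in the calves, and 24.7%, 29.7% and 15.1% in the bulls. ALDH1A3 held 7.10%, 7.81% and 2.74% in the calves and 2.12%, 4.03% and 0.766% in the bulls. The share of ALDH1A1 was 86.4%, 87.3% and 95.1% in the calves and 73.2%, 66.2% and 84.1% in the bulls. Every bull lay below every calf in the share of ALDH1A1. Calves had a mean ALDH1A1 share of 89.6% ± 4.77 (SD, n = 3) and bulls of 74.5% ± 9.03 (SD, n = 3), with p = 0.1 in a two-sided exact permutation test, the smallest p that 3 animals against 3 allow. Without calf 3 the mean in calves was 86.8%.

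**Figure D2:**
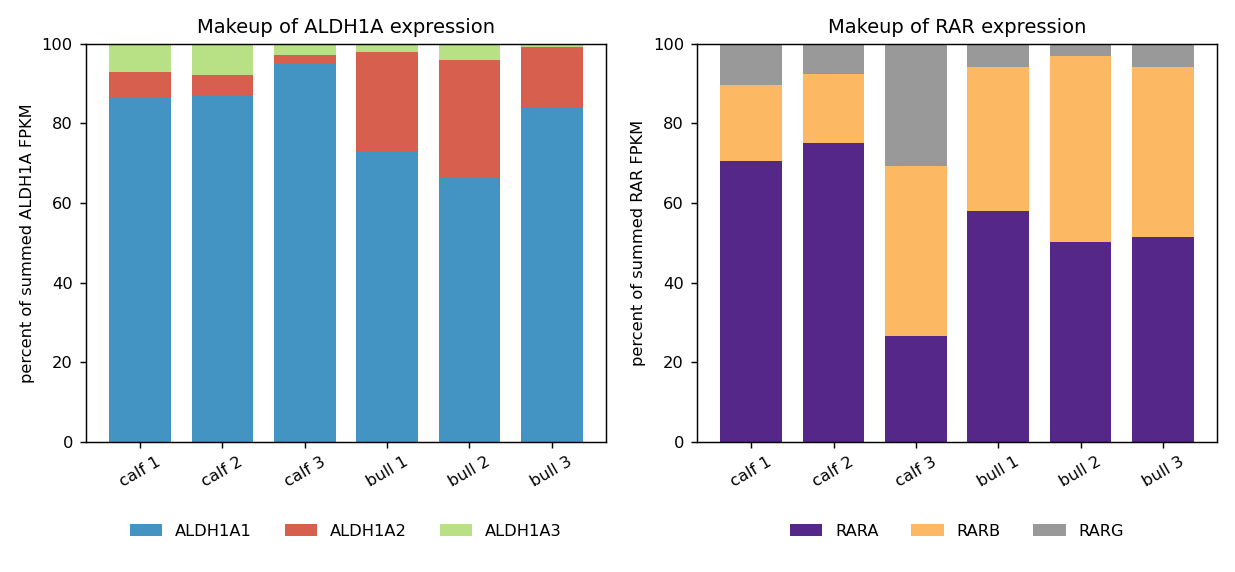
Stacked bars of the percent of the summed FPKM of ALDH1A1, ALDH1A2 and ALDH1A3 (left) and of RARA, RARB and RARG (right), 1 bar per library. ALDH1A2 held 15.1% to 29.7% of the ALDH1A sum in bulls and at most 6.51% in calves, and RARB held 36.3% to 46.8% of the RAR sum in bulls against 19.1% and 17.3% in calf 1 and calf 2.

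Of the enzymes of breakdown, CYP26A1 (ENSBTAG00000021118, chromosome 26, 14416061 to 14419635), whose transcription is itself known to be induced by retinoic acid, had 0.314, 0.155 and 0.0323 FPKM in the calves. The bulls had 2.05, 1.08 and 2.54 FPKM, and the groups did not overlap. CYP26A1 was called higher in bulls with all libraries (log2 difference 1.28 ± 0.22 SE, adjusted p = 0.00370, limma) and without calf 3 (1.19 ± 0.24 SE, adjusted p = 0.00471). It had passed the filter only through bulls, the group in which it was higher, so that its call is no support for an increase. After quantile normalization, however, its change was 0.19 (adjusted p = 0.487). Its rank among the 18115 genes overlapped between groups, at 14895 to 15627 in calves and 13743 to 16848 in bulls. Upper quartile scaling kept the call (1.03, adjusted p = 0.00806).

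CYP26B1 (ENSBTAG00000012212, chromosome 11, 12376837 to 12396521), known for keeping retinoic acid low in the fetal testis of mice, had 1.96, 4.80 and 0.769 FPKM in the calves. Its FPKM was 4.93, 6.74 and 6.69 in the bulls. The lowest bull was just above calf 2, so that the groups were separate by a small margin. The gene was not called with all libraries (log2 difference 1.18 ± 0.45 SE, adjusted p = 0.0654) or without calf 3 (0.77 ± 0.31 SE, adjusted p = 0.0598). Only with calf 2 left out was it called, at 1.63 (adjusted p = 0.0101). CYP26B1 made up 86.2%, 96.9% and 96.0% of the summed CYP26A1 and CYP26B1 FPKM in the calves, and 70.7%, 86.2% and 72.5% in the bulls.

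Breakdown was set against synthesis as the log2 ratio of summed CYP26A1 and CYP26B1 to summed ALDH1A FPKM, with 0.1 added to each sum. The ratio was −6.54, −5.74 and −2.72 in the calves, and −5.73, −5.38 and −5.91 in the bulls. The bulls lay within the range of the calves (difference of means −0.67, two-sided exact permutation test, p = 0.9). Without calf 3 the difference was 0.47 (exact permutation test, p = 0.4, where the smallest p for 2 against 3 is 0.2). The transcripts of synthesis exceeded those of breakdown in all 6 libraries.

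The receptor RARA (ENSBTAG00000012500, chromosome 19, 40559946 to 40595285) had 10.8, 13.0 and 1.29 FPKM in the calves, and 11.0, 12.3 and 11.2 in the bulls. All bulls lay between calf 1 and calf 2. Its log2 fold change was 0.79 ± 0.70 (SE; adjusted p = 0.374, limma) with all libraries and −0.042 ± 0.13 (SE; adjusted p = 0.786) without calf 3.

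The entries of the table of transcripts, whose FPKM add up to that of the gene, were then compared. RARA-202 (ENSBTAT00000016586) had 7.23 and 8.36 FPKM in calf 1 and calf 2 and 0.137 in calf 3, against 2.63, 4.17 and 5.71 in the bulls. An entry assembled from the reads, TCONS_00144959 (chromosome 19, 40588710 to 40590846), had 0.595, 0.637 and 0.00190 FPKM in the calves and 3.08, 4.04 and 3.22 in the bulls. The assembled entry was thus higher in every bull than in every calf, whereas RARA-202 was lower in bulls than in calf 1 and calf 2. As a share of RARA, TCONS_00144959 made up 5.53%, 4.88% and 0.147% in the calves and 27.9%, 32.8% and 28.8% in the bulls. RARA-202 held 67.1%, 64.1% and 10.6% in the calves and 23.9%, 34.0% and 51.1% in the bulls. In the fit of all 23212 transcripts tested, TCONS_00144959 was called higher in bulls (log2 difference 1.68 ± 0.24 SE, adjusted p = 0.00177, limma), also without calf 3 (1.45, adjusted p = 0.000944). It had passed the filter only through bulls, the group in which it was higher. After quantile normalization TCONS_00144959 had 0.95 (adjusted p = 0.00777), just under the fold change required. RARA-202 was not called with all libraries (0.18, adjusted p = 0.876) or without calf 3 (−0.81, adjusted p = 0.0503). RARA-203 (ENSBTAT00000077691) was not called with all libraries (0.45, adjusted p = 0.398) or without calf 3 (0.095, adjusted p = 0.807).

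**Figure D3:**
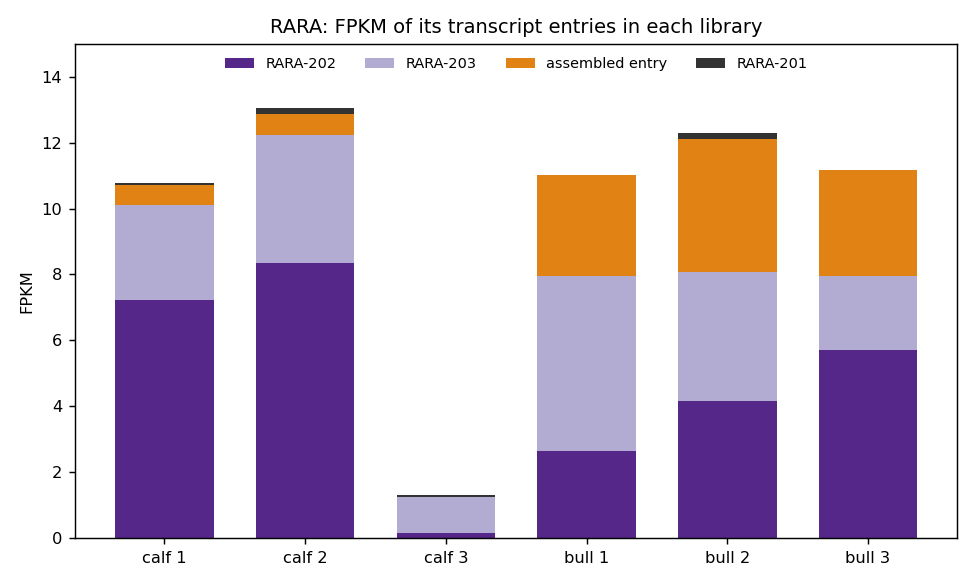
Stacked bars of the FPKM of the 4 RARA entries in the table of transcripts, 1 bar per library. The bars of the bulls end between those of calf 1 and calf 2, while the assembled entry (orange) was 3.08 to 4.04 in bulls and at most 0.637 in calves.

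RARG (ENSBTAG00000007592, chromosome 5, 26774193 to 26796500) was low in all animals, at 1.56, 1.30 and 1.49 FPKM in the calves, and 1.10, 0.757 and 1.26 in the bulls. The value of bull 3 includes 0.267 FPKM, or 21.3%, of an entry listed as antisense, RARG-AS1. Calf 3 lay between calf 1 and calf 2, and every bull was slightly below every calf. Its log2 fold change was −0.27 ± 0.14 (SE; adjusted p = 0.151, limma), and −0.26 (adjusted p = 0.179) without calf 3. After quantile normalization RARG was called lower (−1.15, adjusted p = 0.000789), and its rank was 12243 to 13082 of 18115 in calves and 16453 to 17438 in bulls. RARG held 10.3%, 7.51% and 30.8% of the summed FPKM of RARA, RARB and RARG in the calves, and 5.75%, 3.08% and 5.79% in the bulls. Every bull was below every calf in this share (difference of means −11.3 percentage points, two-sided exact permutation test, p = 0.1, the smallest possible). Without calf 3 the difference in the share of RARG was −4.01 percentage points.

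RBP4 (ENSBTAG00000000442, chromosome 26, 14896080 to 14905333), which carries retinol, was the gene of the set called lower with all libraries. Its FPKM was 15.1, 9.72 and 8.75 in the calves, and 1.63, 2.23 and 2.05 in the bulls. The lowest calf exceeded the highest bull, and calf 3 was near calf 2. RBP4 was called lower in bulls with a log2 fold change of −2.01 ± 0.24 (SE; adjusted p = 0.000803, limma), and −2.15 ± 0.21 (SE; adjusted p = 0.000207) without calf 3. Quantile normalization gave −2.85 (adjusted p = 0.000406). RBP4 was called under every alternative computed, with log2 fold changes from −2.93 to −1.79. Its rank fell from between 3427 and 6165 of 18115 in calves to between 14099 and 15091 in bulls. The liver list holds genes of an organ known for secreting RBP4. Of these, ALB was at 0.432 to 0.527 FPKM in calves and 0.157 to 0.223 in bulls. The 5 genes summed to 513 to 800 FPKM in calves and 202 to 264 in bulls, mostly through APOA1 and TF. APOA1 had 724, 773 and 74.6 FPKM in the calves and 164 to 181 in the bulls. TF had 40.6, 22.9 and 426 FPKM in the calves and 35.2 to 97.6 in the bulls. Of the 5 genes, 3 were lower in every bull than in calf 1 and calf 2, and the rest, TF among them, overlapped. All 8 Sertoli cell genes were lower in every bull than in calf 1 and calf 2. So were all 4 genes found of the leptomeninges list. These 4 genes summed to 751, 879 and 254 FPKM in the calves and to 119 to 203 in the bulls. The part of these lists in the decrease of RBP4 was not tested.

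**Figure D4:**
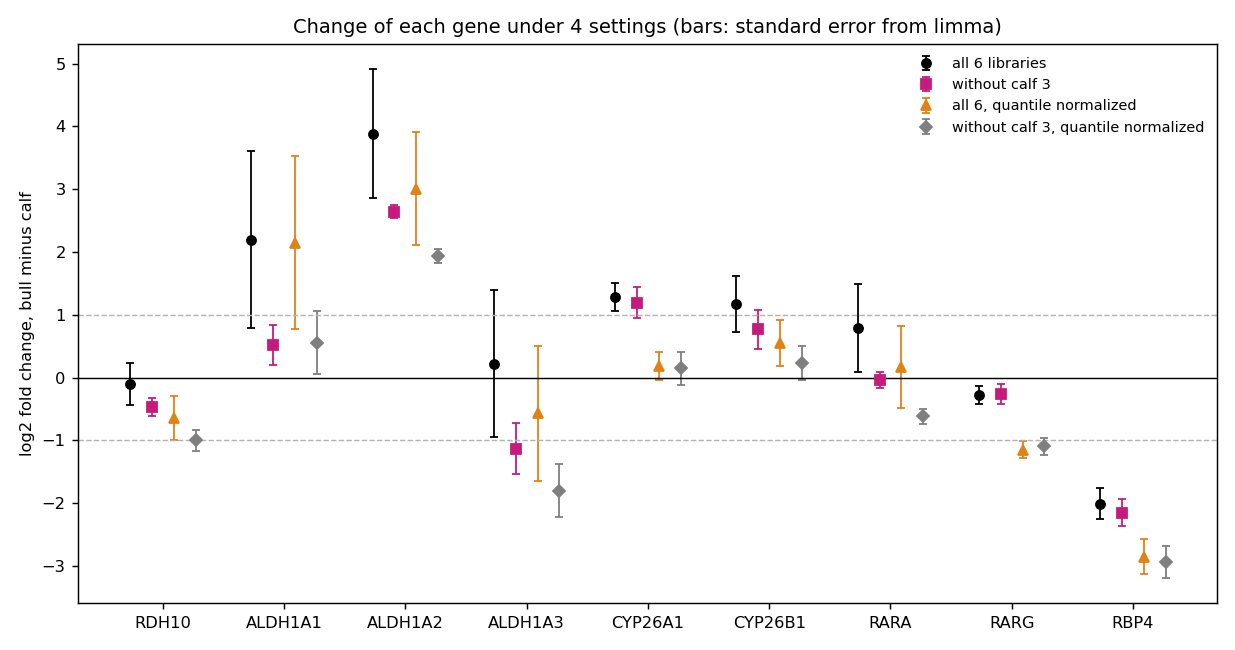
Log2 fold change (bull minus calf, on log2(FPKM + 1)) of each gene with its standard error from limma, under 4 settings, with dashed lines at the fold change required for a call. ALDH1A2 lay above 1 and RBP4 below −1 under all 4 settings, whereas ALDH1A3 and RARA were on either side of 0 and CYP26A1 was at 0.19 after quantile normalization of all 6 libraries.

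Of the 23 transcript entries of the 9 genes, 12 passed the filter and 5 were called, where 44.2% of all transcripts tested were called, 34.8% higher and 9.37% lower. Without calf 3 these shares were 49.2%, 36.1% and 13.1%. The same 5 entries were called without calf 3. They were both Ensembl entries of ALDH1A2, the single entry of CYP26A1 and the assembled entry of RARA, all higher in bulls, and RBP4-202, which was lower. Of the 4 called higher, ALDH1A2-202, CYP26A1-201 and TCONS_00144959 passed the filter only through bulls, so that their number is no support for an increase. After quantile normalization ALDH1A2-201 and RBP4-202 were called, and ALDH1A2-202 was not (1.45, adjusted p = 0.0884). ALDH1A2-201 had 13.6 and 13.0 FPKM in calf 1 and calf 2 and 82.5 to 89.3 in bulls, and it held 90.3% to 97.4% of ALDH1A2 in the bulls. No entry of RARG passed the filter.

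Around the 9 genes, 50 further genes of the pathway were examined in 4 lists, of which 49 were found and 35 were tested. With all libraries, 8 were called higher and 1 lower in bulls. Without calf 3, 9 were called higher and 6 lower, and after quantile normalization of all 6 libraries DHRS4, STRA8 and RARRES1 were called higher (3 genes) and 8 genes lower. The shares of all genes called in these 3 settings were 35.7%, 37.9% and 21.1% for higher and 9.61%, 13.6% and 25.1% for lower, and after quantile normalization 46.2% in all. Of the genes called higher, RBP7 and RPE65 passed the filter only through bulls. STRA6 and CRABP2, which reached an FPKM of 1 in calf 1 and calf 2 alone, were not tested. The counts of genes called higher and lower are therefore no support for an increase.

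For retinol uptake, storage and binding, 7 of 11 genes were tested, and RBP7, DGAT1 and RETSAT were called higher in bulls. RBP7, a cellular retinol-binding protein, had 0.0230, 0.0626 and 0 FPKM in the calves, and 4.16, 1.41 and 4.18 in the bulls. It passed the filter only through bulls. Its log2 fold change was 1.96 (adjusted p = 0.00267, limma), and 1.94 without calf 3. DGAT1, which can esterify retinol but is best known for triglyceride synthesis, rose by 1.47 (adjusted p = 0.000948; 1.61 without calf 3), and RETSAT, a retinol saturase, by 1.05 (adjusted p = 0.0230), though RETSAT was not called without calf 3 (0.78). None of the 3 was called after quantile normalization (RBP7 1.05, DGAT1 0.91, RETSAT 0.51).
FABP5, a fatty acid-binding protein that can carry retinoic acid, was called higher without calf 3 (1.01, adjusted p = 0.00304) and not with it (0.44, adjusted p = 0.489).
The uptake receptor STRA6 was at 15.4 and 5.81 FPKM in calf 1 and calf 2, 0.381 in calf 3 and 0.352 to 0.586 in bulls. CRABP2, which carries retinoic acid to its receptors, was at 3.55 and 5.74 in calf 1 and calf 2, 0.494 in calf 3 and 0.170 to 0.508 in bulls. Neither passed the filter, since they reached an FPKM of 1 in calf 1 and calf 2 alone. TTR, the blood partner of RBP4, was at 47.1 FPKM in calf 3 and at most 0.0660 in the other 5 libraries.

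Of the other retinoid oxidoreductases, 8 of 16 were tested, and DHRS4 and RPE65 were called higher in bulls. DHRS4, a reductase that acts on retinal, had 4.72, 4.72 and 5.66 FPKM in the calves and 39.6, 19.5 and 44.6 in the bulls (log2 fold change 2.48, adjusted p = 0.00112, limma; 2.56 without calf 3). RPE65, the retinoid isomerase known from the eye, had at most 0.125 FPKM in calves and 2.14 to 2.37 in bulls (1.63, adjusted p = 5.74e-05; 1.60 without calf 3), and it passed the filter only through bulls. After quantile normalization RPE65 had 0.54 and was not called. DHRS3, which reduces retinaldehyde back to retinol, opposite to RDH10, had 20.6, 15.6 and 6.12 FPKM in the calves and 4.93, 6.62 and 4.52 in the bulls. DHRS3 was called lower without calf 3 (−1.59, adjusted p = 0.000528) and after quantile normalization (−1.72, adjusted p = 0.0231) but not as deposited with all libraries (−1.12, adjusted p = 0.0719). RDH13 was called lower after quantile normalization (−1.45, adjusted p = 0.000702) and not with all libraries as deposited (−0.58) or without calf 3 (−0.74). CYP26C1, a further CYP26 enzyme, stayed at 0.0308 to 0.109 FPKM in all libraries and was not tested.

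Among the other receptors and cofactors, all 14 of which were tested, RARB was called higher and NR2F2 lower in bulls. RARB, a further retinoic acid receptor and a known target of retinoic acid, had 2.91, 3.00 and 2.06 FPKM in the calves and 6.92, 11.5 and 9.28 in the bulls. Every bull was above every calf. Its log2 fold change was 1.47 ± 0.24 (SE; adjusted p = 0.00268, limma), and after quantile normalization 0.93 (adjusted p = 0.0113), under the fold change required. Without calf 3 RARB had 1.35. The share of RARB in the summed RAR FPKM was 19.1% and 17.3% in calf 1 and calf 2, 42.6% in calf 3 and 36.3% to 46.8% in bulls. NR2F2, an orphan nuclear receptor of stromal cells, fell by 1.94 on the log2 scale (adjusted p = 0.000377; −2.02 without calf 3), from 11.0 to 14.6 FPKM in calves to 2.18 to 3.04 in bulls. Its relative NR2F1 had 5.55, 3.31 and 30.7 FPKM in the calves and 1.26 to 1.34 in the bulls, so that calf 3 was far the highest library. NR2F1 was not called with all libraries (−2.08, adjusted p = 0.0532). It was called lower without calf 3 (−1.22, adjusted p = 0.00200) and after quantile normalization of all 6 libraries (−2.93, adjusted p = 0.0167). NR2C2 was called higher without calf 3 (1.11, adjusted p = 0.000204) and not with it (0.83, adjusted p = 0.0414). The RXR partners RXRA, RXRB and RXRG had log2 fold changes of 0.048, −0.098 and 0.36, with adjusted p from 0.162 to 0.856, and none was called. Without calf 3 they had 0.20, −0.15 and 0.52. After quantile normalization all 3 were below 0, at −0.45, −0.64 and −0.64. NCOR1 and PPARD were called lower after quantile normalization (NCOR1 just past the fold change required, with adjusted p = 0.00173, and PPARD at −1.28) but not with all libraries as deposited (−0.41 and −0.42) or without calf 3 (−0.35 and −0.13).

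In the list of genes known to respond to retinoic acid, 8 of 9 were found and 6 were tested, and STRA8 and RARRES1 were called higher in bulls. STRA8, which is needed for meiosis, had 1.64, 2.28 and 0.290 FPKM in the calves and 19.1, 15.7 and 16.5 in the bulls. Its log2 fold change was 3.01 ± 0.37 (SE; adjusted p = 0.000830, limma), 2.61 without calf 3 and 2.27 after quantile normalization, and it was called in each. RARRES1 had 8.06, 6.20 and 3.07 FPKM in the calves and 105, 39.9 and 72.5 in the bulls, an increase of 3.41 (adjusted p = 0.00111; 3.08 without calf 3). The meiotic cohesin REC8 was at 0.490 to 0.662 FPKM in calves and 1.68 to 1.98 in bulls, passing the filter only through bulls, and its change of 0.84 was under the fold change required (adjusted p = 0.00125; 0.88 without calf 3), with −0.24 after quantile normalization.
Others were higher in calf 1 and calf 2. RARRES2, which encodes chemerin, had 155, 87.4 and 9.10 FPKM in the calves and 18.3, 17.5 and 24.4 in the bulls. RARRES2 was called lower without calf 3 (−2.49, adjusted p = 0.000274) but not with it (−1.31, adjusted p = 0.306). KIT, the receptor of differentiating spermatogonia, was likewise called lower without calf 3 (−1.17, adjusted p = 0.00107) and not with it (−0.94, adjusted p = 0.0234, under the fold change required), and after quantile normalization (−1.51, adjusted p = 0.00653). TGM2 was not called (0.43, adjusted p = 0.471; −0.084 without calf 3), and CDX1 did not exceed 0.386 FPKM in any library. Without calf 3, 2 genes of this list were called higher and 2 lower.

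**Figure D5:**
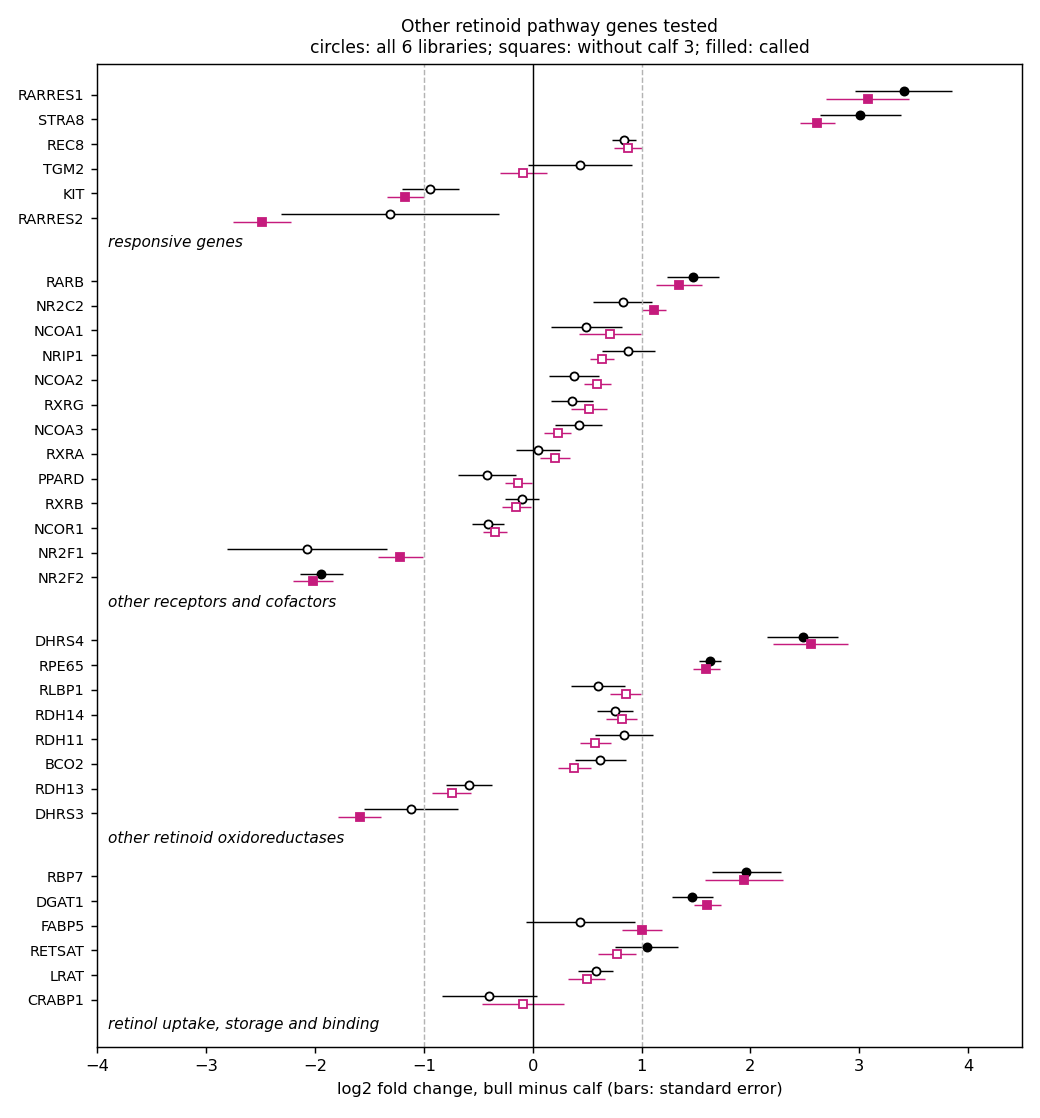
Log2 fold change (bull minus calf, bars give the standard error from limma) of 33 of the pathway genes tested, grouped by list, with circles for all 6 libraries and squares for the fit without calf 3, filled where called. Among the genes plotted, 8 were called higher and 1 lower with all libraries, and 9 higher and 5 lower without calf 3. RBP7 and RPE65, both called higher, passed the filter only through bulls.

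Likeness of pattern was described for the 3 genes of the set that varied most, by the Pearson correlation of log2(FPKM + 1) over the 6 libraries, with other genes that have a symbol. Closest to ALDH1A2 were LSM7, KIF20B and MIS18A, with r of 0.999 each, and 137 genes exceeded 0.99. For ALDH1A1 they were TMEM219, LMO7 and MSRB3 with r of 0.997 each. For ALDH1A3 they were MEI4, BCS1L and XBP1 with r from 0.991 to 0.994. In each of these genes calf 3 was the lowest library, as in the 3 ALDH1A genes themselves. Over the 5 libraries without it, a choice made after these values were seen, the closest genes were others, led by WFDC3 for ALDH1A2 (2094 genes exceeded 0.99), BCL2L11 for ALDH1A1 and CAP2 for ALDH1A3.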

How the data were processed

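By their methods, the authors discarded reads of low quality and reads that Bowtie2 placed on ribosomal RNA. TopHat2 then aligned what was left, and StringTie built the transcripts. They deposited 2 tables of FPKM values, 1 of 47249 genes and 1 of 108527 transcripts, without counts, and the tool that made these FPKM values is not given in the sources used here. The low values of the table did not give whole reads, since at most 3.6% of low genes shared a ratio between libraries, so counts were not recovered and the depth behind a value is unknown. The FPKM sums differed between libraries, from 587066 to 1098715.

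The methods name UMD 3.1.1, but 99.4% of 16434 genes matched by symbol, and all 9 described here, overlapped the locus of the same symbol in the RefSeq table of ARS-UCD2.0, so positions are those of the tables, on an ARS-UCD assembly. No sequences were used here.

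Values were analysed as log2(FPKM + 1) in R 4.3.3 with limma 3.58.1 (empirical Bayes with trend, group as the only term), fitted on the whole table of genes or of transcripts, and features that did not reach an FPKM of 1 in 3 or more libraries were left out. Adding 1 draws fold changes of low genes toward 0. Shares were compared by exact permutation over libraries (scipy 1.17.1), and figures were drawn with matplotlib 3.10.9. The fits were tested on simulated data. The same-numbered calf and bull are different animals, and their deviations from the group means correlated by 0.025 to 0.034 over genes, so the numbers do not pair the samples.

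The genes, lists and markers were chosen with earlier results of these data known. All 9 genes are named, and of the pathway lists the genes called with all libraries or without calf 3 and the responsive genes, except that some genes of these lists, counted in the totals, are not reported here. Others named (STRA6, CRABP2, TTR, CYP26C1, RXRA, RXRB, RXRG, NCOR1, PPARD, RDH13 and the transcripts) were chosen after their values were seen. CYP17A1 has 3 entries in the Leydig cell list, and MEIOSIN was not analysed here.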

Additional observations from a re-analysis of the deposited data

How the results depend on the processing

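Of the 9 genes, RBP4 kept its call under all 15 alternatives, and ALDH1A1 was called under none of them. The direction of RDH10 reversed without calf 1 (0.12) and calf 2 (0.030), with −0.46 to 0.12 over the fits with 1 library left out, where ALDH1A3 had −1.13 to 0.999 and RARA −0.042 to 1.27. ALDH1A3 reversed with array weights (−0.97), quantile normalization (−0.57), upper quartile scaling (−0.29), without bull 2 (−0.13), without calf 3 (−1.13, also with no filter, −1.13) and without calf 3 after quantile normalization (−1.80). RARA reversed without calf 3 (−0.042, also with no filter, −0.042) and without calf 3 after quantile normalization (−0.62). ALDH1A2 lost its call with a pseudocount of 0.1 (4.70, adjusted p = 0.0518, limma) and without any 1 bull. CYP26A1 lost it after quantile normalization with calf 3 (0.19) and without it (0.15), where RARG gained one (−1.15 and −1.09).

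The genes of the set called higher numbered 2, and 1 with a pseudocount of 0.1 and after quantile normalization with or without calf 3, and 1 to 3 with 1 library left out. Of the 2, CYP26A1 passed the filter only through bulls. The genes of the set called lower numbered 1, with 2 after quantile normalization, 3 after it without calf 3, and 1 to 2 with 1 library left out. Pathway genes called higher numbered 8, with 3 after quantile normalization, 4 after it without calf 3, 5 after upper quartile scaling, and 7 to 9 with 1 library left out. Of the 8, RBP7 and RPE65 passed the filter only through bulls. Pathway genes called lower numbered 1, with 6 with array weights, 3 with a pseudocount of 0.1, 8 after quantile normalization, 8 after it without calf 3, 8 with no filter and without calf 3, 6 after upper quartile scaling, and 1 to 6 with 1 library left out. Transcripts called numbered 5, with 2 after quantile normalization and 3 to 5 with 1 library left out.

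With the replicate block, 2 pathway genes were called lower and none of the 9 genes changed its call, and the numbers do not pair the samples. The difference in the log2 ratio of breakdown to synthesis was −0.67 and lay between −1.44 and 0.47 with 1 library left out, reversed only without calf 3 (0.47). The differences in the share of ALDH1A1 (−19.9 to −10.9 percentage points) and of RARG (−15.7 to −4.01) kept their direction with 1 library left out. The whole-table split of calls moved with scaling: 6474 genes were called higher and 1741 lower as deposited, 3827 and 4538 after quantile normalization, and 5041 and 3683 after upper quartile scaling. The fits with calf 3 left out together with no filter or quantile normalization were chosen after seeing the data. FPKM without counts sets no floor for low values.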

Other observations

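On chromosome 26, CYP26C1 and CYP26A1 lie close together by the listed positions, and RBP4 lies farther along. CYP26C1 ends 4684 bases before CYP26A1 begins, and RBP4 begins 476444 bases after CYP26A1 ends, with 6 entries of the table between them, 4 of which have an Ensembl identifier. CYP26A1 was called higher in bulls (not after quantile normalization) and RBP4 lower, while CYP26C1 stayed at 0.0308 to 0.109 FPKM. CYP26A1 was tested only through its levels in bulls.

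Antisense entries were listed within 3 of the genes. RBP4-AS1 had 0.154, 0.430 and 0.193 FPKM in calves and 0.0406, 0.0254 and 0.206 in bulls. RARG-AS1 was above 0 in bull 3 alone, at 0.267, and there it made up 21.3% of the FPKM listed for RARG. ALDH1A2 had 3 such entries. ALDH1A2-AS1 was at 0.00955, 0 and 0 FPKM in the calves and 0, 0.219 and 0.0131 in the bulls. ALDH1A2-AS2 was listed at 0 in all calves and at 0.00830, 0.329 and 0.623 in the bulls. ALDH1A2-AS3 was also at 0 in all calves, with 0.0329, 0.738 and 0.00652 in the bulls. All were low, and none passed the filter.

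RDH10 has 2 entries in the table of transcripts. RDH10-201 held 54.5%, 48.7% and 49.3% of the FPKM of RDH10 in calves and 66.4%, 57.7% and 57.1% in bulls, so that every bull was above every calf. The other entry, TCONS_00081384, had 4.22, 4.14 and 1.80 FPKM in the calves and 2.19, 2.21 and 2.70 in the bulls, and was not called (log2 fold change −0.33, adjusted p = 0.390, limma; −0.62, adjusted p = 0.0161 without calf 3).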
